A study of Mus musculus with 16 samples.

Results

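The binding sites of V5-tagged EWSR1::ATF1 that lie at promoters of noncoding genes alone are described here. EWSR1::ATF1 is the fusion oncoprotein of clear cell sarcoma, and it was mapped by chromatin immunoprecipitation sequencing (ChIP-seq) in tumors of a mouse genetic model. A V5 peak was placed in this group when it overlapped the window within 3 kb of an annotated transcription start site (TSS) of a gene that is not protein-coding and overlapped no such window of a protein-coding gene. By this rule, which uses position and no score, 735 of 10665 V5 peaks (6.89%, 95% Wilson interval 6.43 to 7.39) were noncoding-only promoter peaks. They are compared with 3595 V5 peaks at coding promoters (33.7%) and with 6335 distal V5 peaks outside both kinds of window (59.4%).

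The labels give 16 samples in 4 groups, with 4 samples each for V5, RNAPOL2, H3K27ac and the input. Here V5 marks the fusion, RNAPOL2 the phosphorylated RNA polymerase II of transcribed genes, and H3K27ac the acetylated histone of active promoters and enhancers. All groups, the input included, come from mice of the mixed 129/SvJ and C57Bl/6 background. In these mice a human type 1 EWSR1::ATF1 cDNA with a V5 tag is expressed from the Rosa26 promoter once TATCre, a cell-permeable recombinase injected into the hindlimb, has removed a loxP-flanked stop. No group lacks the fusion, the cell of origin is not set by a cell-type promoter, and the age of the mice at harvest and any pooling of tumors are not stated in the labels. There is 1 deposited peak list per antibody, so no value below belongs to a single tumor. Intervals therefore cover counting error over peaks alone, peaks are not tumors, and no test between tumors could be made.

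ATF1 belongs to the ATF/CREB family of basic leucine zipper factors, which bind the palindromic cAMP response element TGACGTCA, often close to the start of a gene. The related AP1 dimers bind TGAGTCA. Noncoding genes are of several kinds. Long intergenic RNAs (lincRNAs) have promoters of their own between coding genes, antisense RNAs run against a coding gene, and processed pseudogenes are retrotransposed copies of mRNAs. Genes of spliceosomal and nucleolar RNAs are compact units, and microRNAs are cut from longer host transcripts. For pseudogenes and microRNAs the annotated start is the end of the copy or of the hairpin, and it need not be where transcription begins.

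The sequences below show the element at the 5 noncoding-only promoter peaks of highest V5 score that hold TGACGTCA. They also show it at 4 chosen peaks of known noncoding genes that hold it, of which Mir212 was chosen after its values were seen. Not every known gene with the element is shown, since Mir670hg also holds it. They are read from the plus strand of GRCm38, the assembly of mm10, 5′ to 3′, with TGACGTCA in capitals.
Gm48956, chr15:25444642-25444699: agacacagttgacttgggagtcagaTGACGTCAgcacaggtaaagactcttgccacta
Gm16350, chr8:14961692-14961749: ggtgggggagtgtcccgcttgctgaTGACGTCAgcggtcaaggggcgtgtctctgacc
Gm16350, chr8:14962531-14962588: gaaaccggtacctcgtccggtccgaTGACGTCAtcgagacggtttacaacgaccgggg
1810044D09Rik, chr6:91440914-91440971: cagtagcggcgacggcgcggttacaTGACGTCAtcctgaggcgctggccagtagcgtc
A430093F15Rik, chr19:10747344-10747401: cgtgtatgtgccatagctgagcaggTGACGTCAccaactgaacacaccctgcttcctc
Gm14321, chr2:167777449-167777506: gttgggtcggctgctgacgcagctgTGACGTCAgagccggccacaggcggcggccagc
Gm14321, chr2:167778017-167778074: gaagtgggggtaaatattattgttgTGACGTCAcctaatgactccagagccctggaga
Mir212, chr11:75173245-75173318: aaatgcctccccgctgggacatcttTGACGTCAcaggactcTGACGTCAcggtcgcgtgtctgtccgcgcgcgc
Mir212, chr11:75173621-75173678: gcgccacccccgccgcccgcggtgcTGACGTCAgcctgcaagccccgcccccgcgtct
Frmd8os and Neat1, chr19:5845991-5846048: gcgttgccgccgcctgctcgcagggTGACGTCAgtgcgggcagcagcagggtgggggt
Snhg15, chr11:6528816-6528873: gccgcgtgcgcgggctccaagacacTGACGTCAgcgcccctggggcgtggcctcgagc
Pvt1, chr15:62037963-62038020: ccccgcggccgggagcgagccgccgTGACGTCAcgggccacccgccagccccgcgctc

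The distance of the element's middle is given from the TSS nearest to the peak's middle base, along the gene's own strand, negative upstream. It was -44 bp in 1810044D09Rik, -46 bp in Pvt1 and -85 bp in Snhg15, so the element lay just before that TSS. Pvt1 has 10 annotated TSSs, and the annotated gene starts at 62037986, upstream of the element. Gm16350 held copies at -135 and -974 bp, and Gm14321 at -58 and 510 bp. The copies of A430093F15Rik (-664 bp), Frmd8os (397 bp) and Gm48956 (969 bp) lay farther away. The 3 copies at Mir212 lay at -114, -98 and 262 bp from the annotated hairpin start.

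A different repeat element, a string of more than 4 TGA or TCA units with at most 5 bases between neighbors, was also present among the noncoding-only promoter peaks of highest score. The longest strings at Gm48956 and Gm45064 are printed with its units in capitals, from the plus strand of GRCm38.
Gm48956, chr15:25446076-25446152: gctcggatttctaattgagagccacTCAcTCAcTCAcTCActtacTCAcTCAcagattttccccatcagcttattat
Gm45064, chr7:89551672-89551744: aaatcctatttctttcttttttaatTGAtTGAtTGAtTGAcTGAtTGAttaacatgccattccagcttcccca
Each of these strings has 6 units.

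The windows of noncoding genes that lie outside all coding windows hold 164 Mb, or 6.02% of the 2726 Mb of the chromosomes. Of the 7070 V5 peaks outside coding windows, 10.4% (9.71 to 11.1) touched a noncoding window, which covers 6.62% of the bases outside coding windows. With the middle base of a peak as its position, in which peak width plays no part, this share was 9.55% (8.89 to 10.3). The middle base lay within 500 bp of the nearest noncoding TSS in 244 peaks (33.2%) and within 1000 bp in 336 (45.7%). It lay upstream of the TSS in 358 peaks (48.7%, 45.1 to 52.3), so neither side of the start held more than its counting error allows.

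Each peak was named after the noncoding gene with the nearest TSS, which gave 652 genes, of which 577 had 1 peak, 67 had 2 and 8 had 3. Of the 735 peaks, 284 (38.6%, 35.2 to 42.2) lay at lincRNA genes, 138 (18.8%) at pseudogenes, 100 (13.6%) at small RNA genes and 81 at antisense genes. A further 73 (9.93%) lay at genes of the type TEC, loci with transcript evidence that still awaits experimental support, and 58 (7.89%) at other long noncoding RNA (lncRNA) genes, chiefly of the type processed_transcript. The last, with a V5 score of 636, lay at a T cell receptor pseudogene, Trav13-3, where 73.1% of the 32-base words of the peak are repeated in the genome. The lncRNA types together took 423 peaks (57.6%, 53.9 to 61.1).

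Pseudogenes were the most numerous of the noncoding genes but seldom had a peak. Among 28630 noncoding genes with a TSS over 3 kb from every coding TSS, 729 (2.55%) had a noncoding-only promoter peak. The share was 7.07% (5.46 to 9.11) of 764 other lncRNA genes, 5.04% (4.48 to 5.66) of 5322 lincRNA genes and 4.43% (3.53 to 5.54) of 1625 antisense genes. It was 2.87% (2.30 to 3.57) of 2651 TEC genes, 2.41% (2.02 to 2.88) of 4933 small RNA genes and 1.10% (0.933 to 1.30) of 12633 pseudogenes. The interval of the other lncRNA share overlaps those of the lincRNA and antisense shares, which overlap each other. The TEC interval overlaps both the antisense and the small RNA interval, whereas the pseudogene share lay below all of these. Of the 693 genes with an RNAPOL2 peak over such a TSS, 27.3% had a V5 peak, compared with 1.93% of the other genes. Seen from the RNAPOL2 list, 1136 of its peaks lay at noncoding-only promoters, and 19.9% (17.7 to 22.3) of them overlapped V5, close to the 20.9% of all RNAPOL2 peaks. Of the 1888 H3K27ac peaks at such promoters 566 overlapped V5, compared with 7535 of all 27552 (27.3%, 26.8 to 27.9), and the Wilson interval of the first share lies just above that of the second.

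The deposited score, whose scale is not stated, ran from 28 to 23478 over the noncoding-only promoter peaks. Its median was 234 (95% order-statistic interval 218 to 253), above the 174 (164 to 185) of coding promoter peaks and close to the 253 (250 to 265) of distal peaks. By type the medians were 253 for lincRNA, 232 for pseudogenes, 230 for antisense, 228 for TEC, 201.5 for small RNA and 196 for other lncRNA genes, and their intervals all overlapped. Of the 100 V5 peaks of highest score, 9 were noncoding-only promoter peaks, as were 74 of the 1000 highest, near the 6.89% of all V5 peaks.

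**Figure D1:**
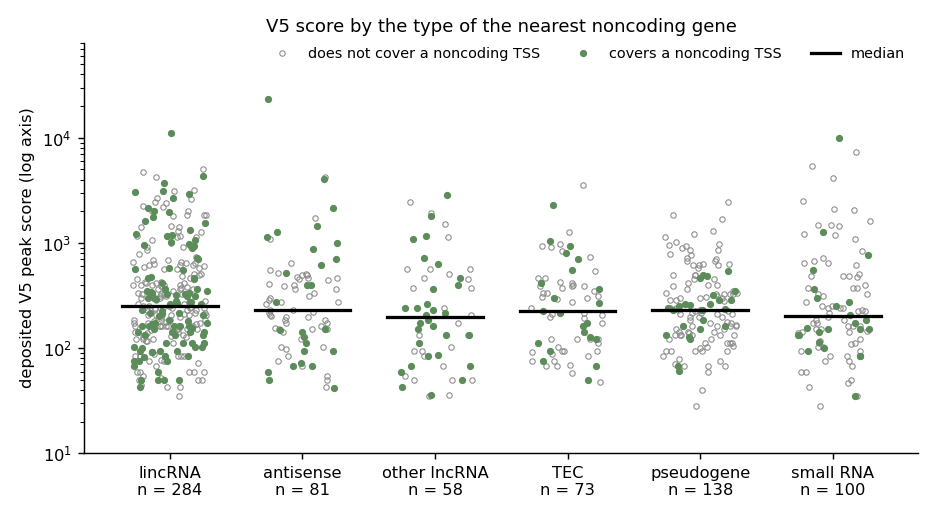
Deposited V5 peak score (log axis) of each noncoding-only promoter peak, by the type of the nearest noncoding gene, with 1 point per peak (the peak at Trav13-3 is not drawn). Filled points cover a noncoding TSS and black bars are medians. The medians lie between 196 and 253, while single peaks reach 23478 in the antisense, 11190 in the lincRNA and 9930 in the small RNA type.

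The V5 peak of highest score in the list used was a noncoding-only promoter peak under the GENCODE annotation. It scored 23478, spanned 3520 bp and covered a TSS of 0710001A04Rik, an antisense gene within Celf4. An RNAPOL2 peak of score 201 and an H3K27ac peak of score 2323 overlapped it. The lincRNA gene Gm48956, 29317 bp from the nearest coding TSS (Basp1), followed with a V5 score of 11190, an RNAPOL2 score of 168 and an H3K27ac score of 1851. Next came Gm23701, annotated as a microRNA gene (9930), and Gm27975, annotated as a snRNA gene within Stk32c (7373). Repeat-masked bases filled 54.8% of the Gm23701 peak. Then came Gm23652 (5441), Gm45064 (4990), Gm47900 (4744), Gm42500 (4363), Gm5083 (4280) and Gm11337 (4198). All of these 10 overlapped an H3K27ac peak, and 8 of them overlapped an RNAPOL2 peak as well, with RNAPOL2 scores from 47 to 201. The median RNAPOL2 score over noncoding-only promoter peaks that had such a peak was 282 (201 to 331), so the strongest V5 peaks stood at the lower end for RNAPOL2. It was 1331 (1281 to 1391) over coding promoter peaks and 107 (98 to 117) over distal ones.

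Marks of transcription lay over fewer of these peaks than over coding promoters. RNAPOL2 overlapped 229 of 735 (31.2%, 27.9 to 34.6), compared with 42.0% of all V5 peaks, 85.5% (84.3 to 86.6) at coding promoters and 18.5% (17.6 to 19.5) at distal sites. The difference to coding promoters was -54.3 percentage points (95% Newcombe interval -57.8 to -50.7) and that to distal peaks was 12.6 points (9.24 to 16.2). H3K27ac overlapped 524 (71.3%, 67.9 to 74.4), near the 73.4% of all V5 peaks, with a difference of -23.9 points (-27.3 to -20.6) to coding promoters (95.2%) and of 6.43 to 13.4 points, as a 95% interval, to distal peaks (61.3%). Every interval given for these differences leaves out 0, but in the 2000 highest V5 peaks the H3K27ac difference to distal peaks was 5.16 points (-1.30 to 9.62), which includes 0. With 1 kb windows the RNAPOL2 difference to distal peaks was 23.4 points. With only the upper 50% of mark peaks by score, which lowers overlap by construction, RNAPOL2 lay over 15.9% of the group and neither mark over 54.8%.

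The marks were nested, as they were over all V5 peaks, of which RNAPOL2 overlapped 42.0%, H3K27ac 73.4% and neither 26.2%. Both marks lay over 228 peaks, H3K27ac alone over 296, neither over 210 (28.6%, 25.4 to 31.9, compared with 26.2% of all V5 peaks) and RNAPOL2 alone over 1. That peak, with a V5 score of 218 and an RNAPOL2 score of 47, lay at the lincRNA gene Gm5544. Neither mark was found over the peak at 1700061N14Rik, a lincRNA gene 3433 bp from the TSS of Cldn24, although its V5 score of 3135 was among the 20 highest of the group. The pseudogene Gm18889 (1292) and the microRNA gene Mir592 (1259) followed among the unmarked peaks. Of the peaks with H3K27ac alone, Gm23652 (5441), Gm5083 (4280) and Gm44361 (4127) scored highest.

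**Figure D2:**
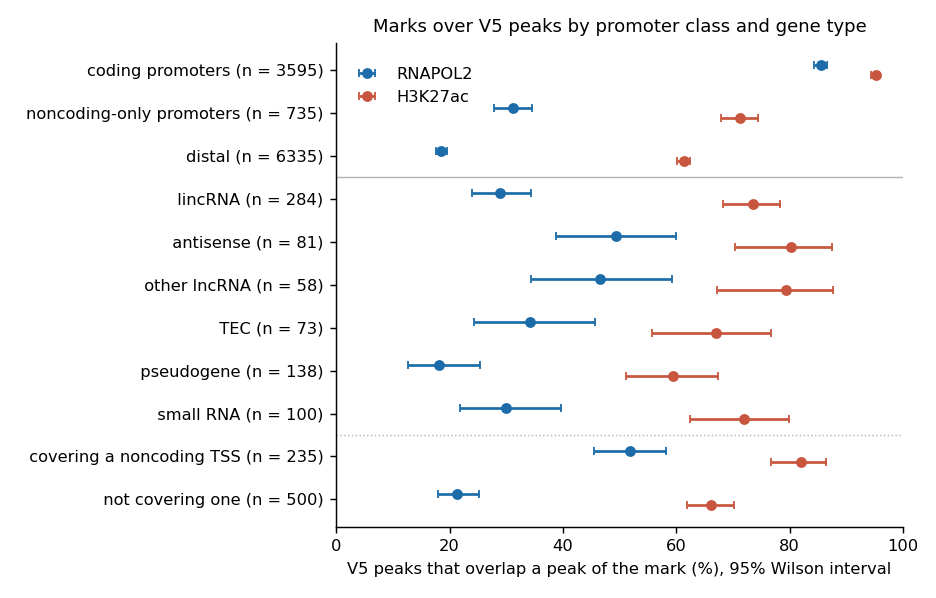
Percent of V5 peaks that overlap an RNAPOL2 (blue) or an H3K27ac (red) peak by at least 1 bp, with 95% Wilson intervals. The upper rows show the classes of V5 peaks, and the rows beneath show the 735 noncoding-only promoter peaks by gene type and by whether the peak covers a noncoding TSS. RNAPOL2 runs from 18.1% at pseudogenes to 49.4% at antisense genes among the types and is 51.9% over a noncoding TSS, all below the 85.5% of coding promoters.

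RNAPOL2 was more frequent over peaks that covered a start site. A noncoding TSS lay inside 235 peaks, and 51.9% (45.5 to 58.2) of these overlapped RNAPOL2, compared with 21.4% of the other 500 (a difference of 30.5 points, 23.1 to 37.7). H3K27ac lay over 82.1% and 66.2% of them (a difference of 15.9 points, 9.20 to 22.0). The 500 peaks that covered no TSS differed from distal peaks in RNAPOL2 by 2.87 points, with an interval from -0.640 to 6.79 that includes 0. With growing distance to the nearest noncoding TSS the RNAPOL2 share was 25.3% at up to 1000 bp, 24.7% at up to 2000 bp and 13.8% (9.26 to 19.9) beyond that. Peaks over a coding TSS had RNAPOL2 in 95.5% of 2719 cases, and the peaks over a noncoding TSS differed from them by -43.6 points (-50.0 to -37.2).

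**Figure D3:**
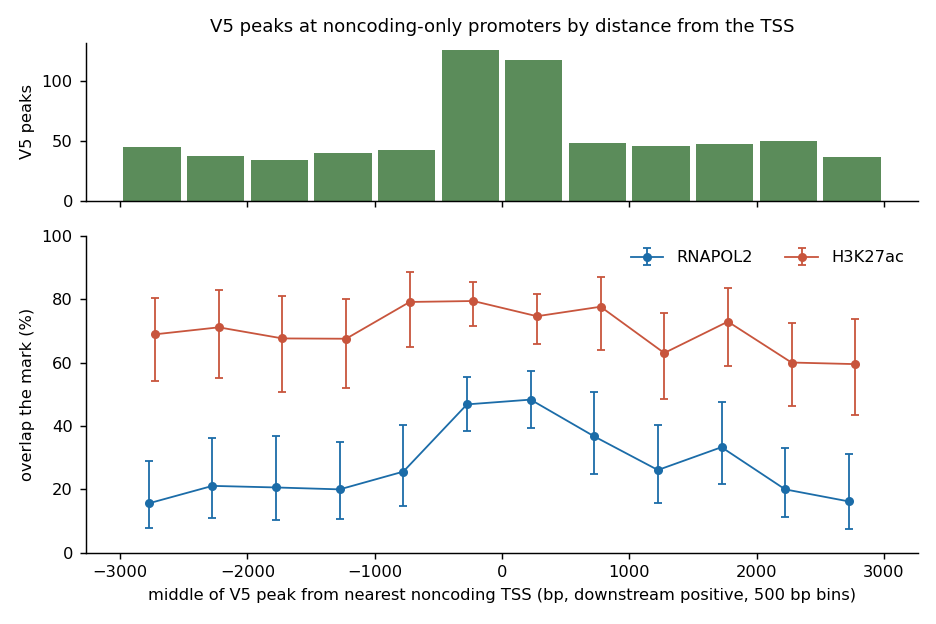
Number of noncoding-only promoter peaks (upper panel) and the percent that overlap RNAPOL2 or H3K27ac (lower panel, 95% Wilson intervals) by the distance of the peak's middle base from the nearest noncoding TSS, in 500 bp bins. The 61 peaks whose middle lies over 3000 bp away are not drawn. The 2 bins beside the TSS hold 126 and 118 peaks, with RNAPOL2 over 46.8% and 48.3% of them, and the outermost bins have 15.6% and 16.2%.

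The base composition of the peaks moved with the marks. The CpG ratio (observed CpG count over that expected from the C and G content) was at least 0.6 in 82 noncoding-only promoter peaks (11.2%), 73.1% of coding promoter peaks and 2.51% of distal peaks. RNAPOL2 lay over 92.7% (84.9 to 96.6) of the 82 and over 23.4% (20.3 to 26.8) of the other 653. Among peaks with a high ratio, those at noncoding-only promoters differed by -5.95 points (-13.7 to -1.99) from coding promoter peaks (98.6%) and by 29.8 points (19.3 to 38.5) from distal peaks (62.9%). Among peaks with a low ratio the differences were -26.4 points (-30.8 to -21.7) to coding promoter peaks (49.8%) and 6.04 points (2.81 to 9.56) to distal ones (17.4%). Within either stratum the difference to coding promoters was smaller than the -54.3 points found without regard to composition. With a high ratio both shares were high, which leaves little room for a difference. The part of composition in the difference was not tested. Peaks on and off a noncoding TSS were also compared within each stratum, but the differences of the strata were not tested against each other. With a high ratio RNAPOL2 lay over 92.2% (83.0 to 96.6) of 64 peaks that covered a TSS and 94.4% (74.2 to 99.0) of 18 that covered none, and with a low ratio over 36.8% of 171 and 18.7% of 482. The 18 peaks, with a share this high, cannot decide whether the strata differ in this. These strata were chosen after the data were seen.

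CpG-rich noncoding promoters had lower V5 scores and higher RNAPOL2 scores. Their median V5 score was 142 (113 to 163), compared with 253 (230 to 277) for the 653 others, and their median RNAPOL2 score was 1409 (1003 to 1974), compared with 137 (100 to 168). Among the CpG-rich peaks the highest V5 scores were at the lincRNA gene 1810044D09Rik (3037), Trmt61b (1438), whose type in the annotation is antisense, and Rab10os (1142), an RNA antisense to Rab10. Their RNAPOL2 scores were 1054, 263 and 1150.

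At antisense genes RNAPOL2 lay over 40 of 81 peaks (49.4%), close to the 46.6% of other lncRNA genes, 20.5 points (8.55 to 32.3) above lincRNA genes and 30.9 points (20.2 to 41.6) above distal peaks. Where the peak covered the antisense TSS it was 77.8% (59.2 to 89.4) of 27. After 0710001A04Rik and Gm11337 the highest V5 scores were at Gm16350 (4055), within Arhgef10, and at 2810442N19Rik (2131), within Dnm3. In all, 179 of the 735 peaks lay within the body of a coding gene, and in 106 of these the noncoding gene ran antisense to it. RNAPOL2 there was 36.3%, 6.82 points from the 556 peaks outside coding bodies, with an interval from -0.937 to 14.9.

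At lincRNA genes RNAPOL2 lay over 28.9% (23.9 to 34.4) and H3K27ac over 73.6% (68.2 to 78.4) of 284 peaks. Both shares were above those of distal peaks, by 10.3 points (5.29 to 15.9) and 12.3 points (6.77 to 17.3). Gm48956 and Gm45064 led the type by V5 score. Of the 8 genes with 3 peaks, 4 were lincRNA genes. Gm5083, far from any coding TSS (332016 bp or more), had V5 scores of 4280, 3115 and 50, each overlapped by H3K27ac of score 261. Gm47336 had 2672, 43 and 35, Gm41386 had 565, 313 and 161, and Gm13417 had 313, 218 and 148. None of these 12 peaks overlapped RNAPOL2. The scores at 1 gene were thus far from equal in Gm5083 and Gm47336. The antisense gene Gm31763, within or beside Reep3, had scores of 651, 67 and 54, all with both marks, and the snoRNA gene Gm25125 had 1443, 482 and 241 with no RNAPOL2.

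Among the other lncRNA genes, 4933431K23Rik (V5 score 2844, 38567 bp from the nearest coding TSS, that of the endothelin receptor gene Ednra) and A430093F15Rik (2464) scored highest. Both had H3K27ac without RNAPOL2. RNAPOL2 lay over 46.6% (34.3 to 59.2) of the 58 peaks of this type. TEC genes, with 34.2% (24.4 to 45.7) of 73, were led by Gm44861 (3570) and Gm45719 (2278).

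Pseudogene peaks differed little from distal peaks. RNAPOL2 lay over 18.1% (12.6 to 25.4) and H3K27ac over 59.4% (51.1 to 67.3) of 138, and the differences to distal peaks were -0.416 points (-6.03 to 6.90) and -1.86 points (-10.3 to 6.06). Gm10045 (2443) and Snrp1c-ps2 (1861), the latter in the histone gene cluster 7086 bp from Hist1h2ba, had the highest V5 scores. The 10 pseudogene peaks that covered a TSS and overlapped RNAPOL2 had a median RNAPOL2 score of 3230, with an interval from 71 to 4446. Gm10060 (5573), Pisd-ps2 (4446) and D630033A02Rik (4018) were the highest of these, with V5 scores of 322, 233 and 67. Of the 32-base words of the Gm10060 and Pisd-ps2 peaks 76.1% and 47.6% occur more than once in the genome, so these scores may be shared between copies, whereas none of those of D630033A02Rik do.

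Some of these peaks lie in sequence that the genome holds in several copies, where reads cannot be assigned to 1 copy with certainty. At least 50% of the 32-base words of the peak occurred more than once in the genome in 19 of the 735 peaks (2.59%, 1.66 to 4.00), compared with 1.22% at coding promoters and 1.15% at distal sites. Pseudogenes held 8 of the 19 and small RNA genes 8. At Gm10925 (V5 score 231) and Gm28439 (128), adjoining pseudogenes on chromosome 1 with neither mark, 99.0% and 100% of the words also occurred in the mitochondrial genome. Without the 19 peaks and their counterparts in the other classes, the RNAPOL2 share was 30.3%.

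Some peaks over the start of a small nuclear or nucleolar RNA gene had high RNAPOL2 scores beside low V5 scores. RNAPOL2 lay over 13 of 28 snRNA peaks and 4 of 11 snoRNA peaks in all, which include Gm27975 and Gm25125 above, off the TSS and of higher V5 score. Small RNA genes in all had RNAPOL2 over 30 of 100 peaks (21.9% to 39.6%), and over 75.0% (55.1 to 88.0) of the 24 that covered a TSS. Of 13 snRNA or snoRNA peaks over a TSS, 11 overlapped RNAPOL2, with RNAPOL2 scores from 6630 to 23501 and V5 scores from 84 to 207. They included Rnu1a1, a gene of the U1 spliceosomal RNA (RNAPOL2 23501, V5 157), and Rnu11, of the minor spliceosome's U11 RNA (RNAPOL2 11098, V5 84). The U3 nucleolar RNA genes Rnu3b1, Rnu3b2, Rnu3b3 and Rnu3b4, a cluster on chromosome 11, had V5 scores of 207, 152, 142 and 101 and RNAPOL2 scores of 15648, 12451, 14222 and 12297. Of the 10 highest RNAPOL2 scores over noncoding-only promoter peaks, 9 lay at these 11 peaks, and none of the 11 held TGACGTCA. At 8 of the 11, all 4 Rnu3b genes included, at least 50% of the words of the peak were repeated, so their scores may be shared between copies. Rnu1a1 (25.6%) and Rnu11 (3.76%) were below that level.

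**Figure D4:**
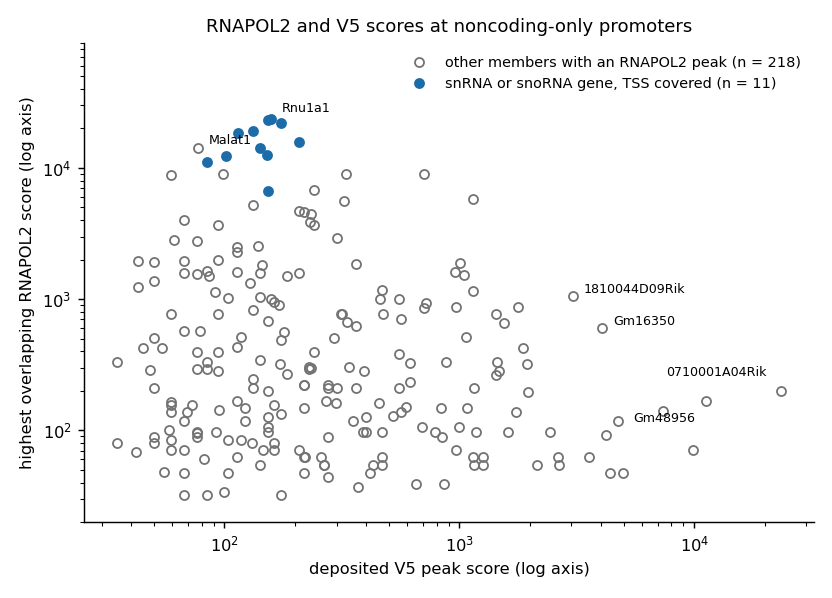
Highest overlapping RNAPOL2 score against V5 score (both deposited scores, log axes) for the 229 noncoding-only promoter peaks with an RNAPOL2 peak. The 11 peaks over snRNA or snoRNA starts (filled) lie at RNAPOL2 scores of 6630 or more and V5 scores of 207 or less, whereas the peak of highest V5 score, 0710001A04Rik, has an RNAPOL2 score of 201.

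A total of 45 noncoding-only promoter peaks overlapped a window of 44 genes annotated as microRNAs, of which 18 have a mature sequence in RefSeq, and 10 of the peaks held a base of the hairpin itself. One of these loci is the Mir212 and Mir132 pair on chromosome 11, which is known from earlier work to answer to CREB. The V5 peak (chr11:75173031-75173870, score 298) held both hairpins, with RNAPOL2 at 162 and H3K27ac at 144. The peak lay 3512 bp from the nearest coding TSS, that of Hic1, but within 3 kb of a curated RefSeq mRNA start. Its 3 copies of TGACGTCA, printed above, made it the 1 noncoding-only promoter peak with 3 or more, compared with 5 of 3595 coding promoter peaks and 2 of 6335 distal ones. The mature RNAs are given from RefSeq (GRCm38.p6) with the seed, bases 2 to 8, in capitals, and they are set beside those of other microRNA genes with a noncoding-only promoter peak.
mmu-miR-212-3p: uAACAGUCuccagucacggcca
mmu-miR-132-3p: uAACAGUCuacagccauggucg
mmu-let-7c-5p: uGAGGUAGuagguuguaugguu
mmu-let-7i-5p: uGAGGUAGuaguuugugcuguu
mmu-miR-99a-5p: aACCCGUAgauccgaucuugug
mmu-miR-125b-5p: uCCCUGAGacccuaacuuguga
mmu-miR-199a-5p: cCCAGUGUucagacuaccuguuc
mmu-miR-592-5p: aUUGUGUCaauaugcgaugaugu
mmu-miR-153-3p: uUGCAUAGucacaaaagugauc
The seed AACAGUC is shared by miR-212 and miR-132, and GAGGUAG by let-7c and let-7i. Both Mir125b-1 and Mir125b-2 encode the mature miR-125b, and each had a noncoding-only promoter peak within 3 kb of the hairpin.

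These microRNA loci differed in their marks. Mir592 (V5 score 1259) and Mir153 (769) had V5 peaks over the hairpin but no overlap with either mark. At the host gene of Mir99a and Mirlet7c-1, Mir99ahg, 3 unusually wide peaks of 4950, 4790 and 4620 bp had V5 scores of 174, 218 and 162, with RNAPOL2 scores of 134, 223 and 80. The median width of noncoding-only promoter peaks was 730 bp. A peak of 5770 bp and score 122 lay at the neighboring TEC gene 9430053O09Rik, and a narrow one of score 84 lay near Mir125b-2. Mirlet7i shares its peak, of V5 score 67, with the transcribed pseudogene D630033A02Rik, under RNAPOL2 of 4018 and H3K27ac of 6461. At Mir125b-1, V5 scores were 50 and 28, with H3K27ac and no RNAPOL2.

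Dnm3os, the antisense host of Mir199a-2, had 3 noncoding-only promoter peaks. The peak over its TSS scored 67 and overlapped RNAPOL2 (1956) and H3K27ac (2603). The upstream peak scored 442 and overlapped H3K27ac but not RNAPOL2, and the third, with both marks, scored 43. Thus the peak on the start was not the highest of the locus.

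Known noncoding genes were taken from lists of nuclear structure, X inactivation, imprinted, snoRNA host, miRNA host, developmental, growth and p53, and small structural RNA genes. Of 53 listed genes with a TSS over 3 kb from coding TSSs, 11 had a noncoding-only promoter peak, beside 2.55% of all such noncoding genes. The lists were chosen with earlier results of these data known, so nothing is read from that comparison. Peaks lay at 2 of 3 nuclear structure genes, 2 of 9 snoRNA hosts, 3 of 9 miRNA hosts, 2 of 9 developmental genes and 2 of 7 growth and p53 genes. None of 4 X inactivation, 7 imprinted or 5 small structural RNA genes had one. The Rosa26 gene, where the transgene sits, had no noncoding-only promoter peak, and all its starts lie within 3 kb of a coding TSS.

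Both nuclear structure genes with a noncoding-only promoter peak overlapped RNAPOL2 of high score. Malat1, which makes an abundant RNA of nuclear speckles, had a V5 score of 77 below an RNAPOL2 score of 14247. At Neat1, the scaffold RNA of paraspeckles, a V5 peak of score 709 with TGACGTCA and a neighbor of score 99 lay within the windows of both Neat1 and the antisense gene Frmd8os, under an RNAPOL2 peak of 8999. Of the snoRNA hosts, Snhg15 had a V5 score of 469 with TGACGTCA (RNAPOL2 1183), and Snhg8 a score of 241 without it (RNAPOL2 6772). Within windows of Dleu2, host of Mir15a and Mir16-1, peaks had scores of 363, 142 and 67, and all 3 had both marks. The first spanned 10870 bp and was named after a small RNA gene with a nearer TSS. Mir670hg, another miRNA host, had a score of 207 with TGACGTCA and with H3K27ac alone.

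Among developmental and growth genes, Pvt1, the neighbor of Myc, had a V5 peak over its TSS (180, with TGACGTCA and RNAPOL2 of 557) and a downstream peak of 301 with H3K27ac alone. Lncpint, a p53-induced RNA, had scores of 317 and 128, both with RNAPOL2 and H3K27ac. Bvht, a lincRNA of cardiac development, had scores of 694 and 153, also with both marks.

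**Figure D5:**
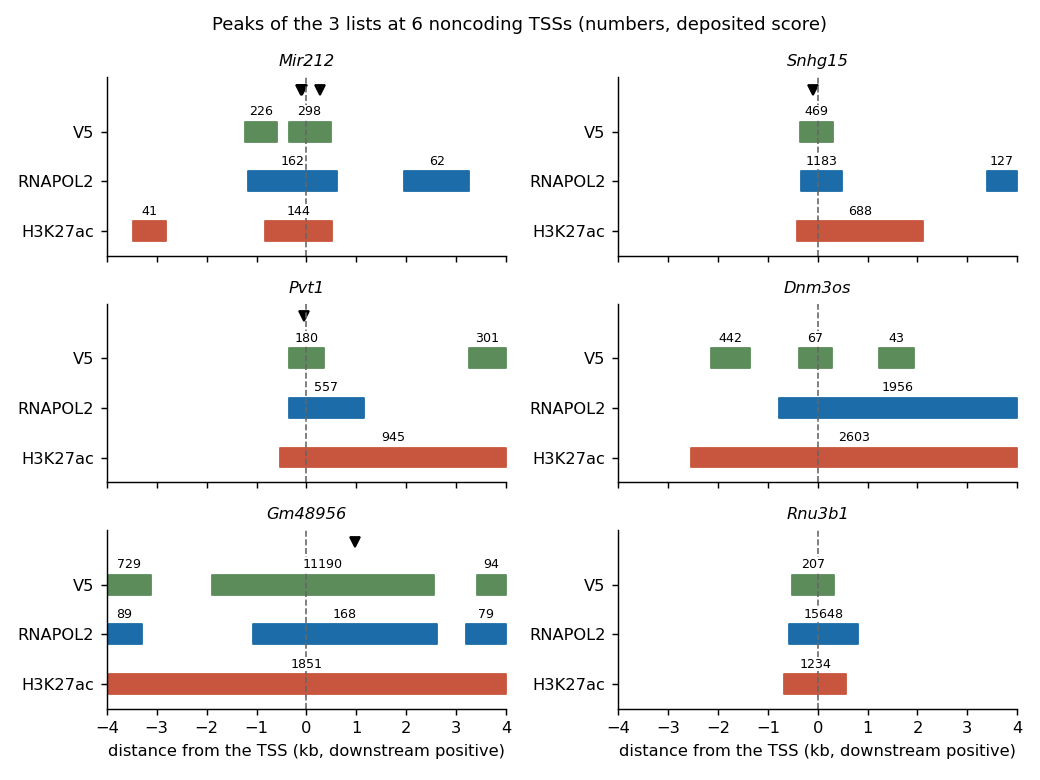
Peaks of the 3 lists within 4 kb of 6 noncoding TSSs, as distance from the TSS along the gene's strand (kb). Numbers above bars are deposited scores and triangles mark TGACGTCA inside V5 peaks (2 of the 3 at Mir212 are 16 bp apart and coincide in the drawing). V5 peaks at Mir212, Snhg15, Pvt1, Dnm3os and Rnu3b1 cover the TSS with scores of 298, 469, 180, 67 and 207, and that of Gm48956 scores 11190.

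The full element TGACGTCA was present in 55 noncoding-only promoter peaks (7.48%, 5.79 to 9.61, compared with 8.51% of all V5 peaks), in 59 copies. The difference was -6.54 points (-8.59 to -4.14) to coding promoter peaks (14.0%) and 1.97 points (0.185 to 4.17) to distal ones (5.51%). Peaks over a noncoding TSS held it in 12.8% (9.09 to 17.6), which differed from the 16.4% of peaks over a coding TSS by -3.67 points with an interval from -7.62 to 1.38. Where such a peak also overlapped RNAPOL2 the share was 19.7% (13.6 to 27.6), and in the 113 without RNAPOL2 it was 5.31%. It was 10.2% at lincRNA genes, 9.88% at antisense genes and 2.17% (0.742 to 6.20) at pseudogenes. RNAPOL2 lay over 29 of the 55 peaks with the element, and their median V5 score was 363 (230 to 509).

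Of the other motifs, TGAGTCA was somewhat less frequent than at distal sites, whereas the TGANNTCA forms had shares near those of distal peaks. TGAGTCA lay in 28.8% (25.7 to 32.2, compared with 26.0% of all V5 peaks), 13.8% of coding promoter peaks and 32.6% of distal ones. The 95% interval of the difference was 11.7 to 18.6 points to coding promoter peaks and -7.14 to -0.202 points to distal ones. Forms of TGANNTCA other than TGACGTCA lay in 49.0% (45.4 to 52.6), compared with 22.4% at coding promoters and 49.5% at distal sites, and TGACATCA alone in 20.3%, 7.40% and 20.2%. Strings lay in 13.2% (10.9 to 15.8, compared with 10.2% of all V5 peaks), and the 97 peaks with one had a median V5 score of 402 (351 to 565). None of the motifs was found in 235 peaks, whose median V5 score was 163 (142 to 207). All motifs were searched on both strands over the whole peak, and a string can contain other motifs. In the central 200 bp alone, TGACGTCA lay in 3.95% and TGAGTCA in 12.1% of the noncoding-only promoter peaks. A longer peak has more room for a match, and a match is not evidence of contact.

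The marks differed along the range of V5 scores. The noncoding-only promoter peaks were split at the quartiles into scores of 28 to 132, 138 to 234, 236 to 484 and 486 to 23478. From the lowest to the highest of these groups, RNAPOL2 lay over 82 of 200, 47 of 168, 39 of 183 and 61 of 184 peaks, and H3K27ac over 142, 111, 111 and 160 of them. The highest group differed from the lowest in H3K27ac by 16.0 points (7.84 to 23.8) and in RNAPOL2 by -7.85 points, with an interval from -17.3 to 1.82. Groups of 3 or more H3K27ac peaks joined over gaps of up to 12.5 kb held 37.8% (34.4 to 41.4) of the noncoding-only promoter peaks, compared with 30.8% of coding promoter peaks and 32.6% (31.5 to 33.8) of distal peaks.

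At the edge of the rule, the peaks that only just reached into a noncoding window lay 2995 bp (1700087I21Rik, score 174), 2980 bp (Gm23652, 5441) and 2971 bp (A930041C12Rik, 196) from the TSS. Those just outside lay 3005 bp (Gm48712, 428), 3022 bp (Gm45338, 754) and 3025 bp (Gm12041, 194) away. The annotation also sets the group: 34 of the peaks (4.63%) lay within 3 kb of an mRNA start in RefSeq that GENCODE does not type as coding, and RNAPOL2 lay over 64.7% (47.9 to 78.5) of these. For 8 of them, Mir212 and Gm5544 among these genes, the RefSeq mRNA was of the curated kind.

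Across the whole lists, V5 had 10665 peaks, RNAPOL2 20375 and H3K27ac 27552, and the lists carry no counts, so the depth behind a peak cannot be read from them. The study also counts a larger set of binding sites than this V5 list, and every share, overlap and absence given here applies to the list used. RNAPOL2 peaks lay over a TSS of 2 of 8 melanocytic and neural crest markers (Mitf and Pmel), 0 of 8 skeletal muscle, 1 of 4 immune, 1 of 3 endothelial and 2 of 3 fibroblast markers. H3K27ac peaks lay over 3, 0, 3, 1 and 3 of the same lists, and the part of such other cells in the peaks was not tested.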

How the data were processed

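Peak lists in BED form were used, 1 per antibody, in mm10. The narrowest peak of each list spans 500 bp, and all peaks lie on a 10 bp grid. The step that set this form is not stated in the sources used. Per the labels and the study's methods, the authors aligned reads with BWA-MEM 0.7.10-r789, removed duplicates with samtools rmdup, removed peaks in denylisted regions and called peaks with MACS2 2.2.6 over input, in broad mode for H3K27ac. The deposited score of each peak was used as a score with no further scaling. Its scale, and how the samples of an antibody were combined into its peak list, are not given in the sources used here (averaging of replicates is stated for the signal tracks). The methods name more V5 and RNAPOL2 samples than the 4 in the labels. The input has no list and was not used further.

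V5 peaks were classed with GENCODE vM21, with the 5′ end of every transcript as a TSS and an overlap of at least 1 bp. Sequence came from GRCm38.p6, and RefSeq gave the microRNAs. Python 3.11.15, numpy 2.4.6, scipy 1.17.1 and pysam 0.24.0 were used, and the functions were tested on simulated data. Shares have 95% Wilson intervals, differences Newcombe intervals and medians order-statistic intervals. They cover counting error only, and no p-value was computed.

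Named genes were the 10 highest scores, the 2 highest of each type, the 3 highest of each mark class, the 5 highest with TGACGTCA, the 3 highest with a string, genes with 3 peaks and listed genes. The sequence of 1 string is not reported here. CpG-rich, snRNA, snoRNA and pseudogene examples over a TSS, microRNA genes and repeated copies were chosen after their values were seen. The members and lists were chosen with earlier results of these data known. The alternatives were other windows, gene types, TSS sets, score limits and overlap rules.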

Additional observations from a re-analysis of the deposited data

How the results depend on the processing

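The 12 summary values were recomputed under 18 settings, which gave 191 values. Of these 120 moved by less than the counting interval, 71 moved by more and none changed direction. The settings on peaks over a TSS, RefSeq starts and repeated sequence were chosen after the data were seen. No paired analysis was possible because each antibody has 1 peak list for all its samples, and for the same reason no sample could be left out in turn.

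The share of V5 peaks at noncoding-only promoters was 4.37% with 1 kb windows, 9.23% with 5 kb windows, 6.42% by the middle base, 6.27% without TEC genes, 4.10% with lncRNA types only, 5.72% with coding windows of 10 kb and 2.20% for peaks over a noncoding TSS. The lncRNA-type share was 62.7% (1 kb), 53.7% (5 kb), 64.1% (without TEC), 100% (lncRNA types only, by construction), 62.7% (2000 highest V5 peaks) and 69.4% (over a TSS).

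With 1 kb windows RNAPOL2 was 43.3% (differences -48.5 to coding and 23.4 to distal), H3K27ac 79.4% (-17.8 and 16.9) and neither mark 20.6%. With lncRNA types only they were 35.5% (-50.0 and 16.7), 75.7% (-19.4 and 14.3) and 24.0%, and TGACGTCA 10.3%. For peaks over a TSS they were 51.9% (-33.6 and 33.2), 82.1% (-13.0 and 20.5) and 17.9%, TGACGTCA 12.8% and TGAGTCA 25.1%.

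In the 2000 highest V5 peaks RNAPOL2 was 38.1% (-49.1 and 8.41), H3K27ac 90.3% (-8.71 and 5.16), neither 9.70%, the median score 1242, TGACGTCA 11.9% and TGAGTCA 38.1%. There the H3K27ac difference to distal peaks had an interval from -1.30 to 9.62, which includes 0. In the upper 50% of V5 peaks RNAPOL2 was 27.7% (7.74 to distal), the H3K27ac difference to distal 6.09, the median score 482 and TGAGTCA 33.9%.

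With the upper 50% of mark peaks RNAPOL2 was 15.9% (-60.7 to coding), H3K27ac 44.9% (-42.7 and 14.2) and neither 54.8%. When a mark had to cover at least 50% of the V5 peak these were 27.5%, 63.4% (-29.3 to coding) and 36.1%, and when it had to cover the middle base H3K27ac was 60.8% (-30.9 to coding) and neither 38.2%. RNAPOL2 was 37.5% with gene 5′ ends as TSSs. Its difference to coding promoters was -57.8 with protein_coding transcripts only and -43.7 with coding windows of 10 kb, where that of H3K27ac was -19.0. In the central 200 bp TGACGTCA was 3.95% and TGAGTCA 12.1%, a shorter stretch by construction. For the other settings the cause of these moves was not tested.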
